A study of Mus musculus with 12 samples.

Results

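Collagens, laminins and integrins were followed in PKSV-PCT, a mouse cell line from the proximal convoluted tubule of the kidney, as the transcripts of all genes whose array symbol begins with a collagen, laminin chain or integrin subunit name. The symbol rule took 176 of 45281 probes, which stand for 79 of 19057 named genes. Of these, 41 encode collagen chains, 9 laminin chains, 16 integrin α subunits and 9 integrin β subunits. The other 4 (Itgb1bp1, Itgb1bp2, Itgb3bp and Itgbl1) only share the beginning of a symbol and were counted apart. A probe was tested when its detection p was under 0.05 on at least 3 of 12 arrays, which left 68 of the 176 probes and 44 of the 79 genes.

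Transcripts had been measured in total RNA on Illumina bead arrays of the whole mouse genome, with 3 arrays in each of 4 groups. The cells carried a human sex hormone-binding globulin (SHBG) cDNA in the vector pRC/CMV, driven by the viral CMV promoter and expressed constitutively. It encoded either the wild-type plasma carrier of androgens, or the S42L mutant, whose steroid binding was below detection. Each line received DHT (5α-dihydrotestosterone) or testosterone, at 100 nM, for 24 h. The 4 groups were thus S42L cells with DHT, wild-type SHBG cells with DHT, S42L cells with testosterone and wild-type SHBG cells with testosterone. All 4 shared 3 days without steroid and a medium with 2% fetal bovine serum, insulin, dexamethasone, which is itself a steroid, selenium, transferrin, triiodothyronine, EGF, glucose, penicillin and streptomycin. The treatment protocol puts the 3 days after the hormone, while the sample names give only 24 h of hormone, so the time between hormone and RNA extraction is uncertain for every androgen value. None of the 4 groups was without androgen or without human SHBG. The lines came from limiting dilution cloning and no separate clones are named, so variant and clone cannot be told apart. No label says that the 3 samples of a group were separate cultures, so the p-values rest on a spread between samples that may be only technical.

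Tubule epithelium rests on a basement membrane, a sheet in which a laminin network and a collagen IV network are joined by nidogens and perlecan. Laminins are trimers of 1 α, 1 β and 1 γ chain, and collagen IV is a trimer of chains that come from paired genes lying head to head. Integrins are αβ heterodimers that bind these proteins from the cell side: Itga3 and Itga6 pair with Itgb1 or, for Itga6, with Itgb4 as laminin receptors, Itga1 and Itga2 pair with Itgb1 as collagen receptors, and Itgav pairs with several β subunits to bind RGD-containing ligands and to activate latent TGF-β. Fibrillar collagens such as Col1a1, Col3a1 and Col5a1 belong mostly to the interstitial matrix.

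Arrays had mean signals of 560.2 to 707.4, and 17314 to 19204 probes were detected per array, among them 54 to 70 of the 176 collagen, laminin and integrin probes. The small number of arrays limits the precision here. The array of wild-type testosterone replicate 3 stood apart. Over the 46 probes of these families detected on all 12 arrays, its values lay on average 0.311 log2 units from its group's median, against 0.057 to 0.148 on the other 11 arrays. It was the highest of its group for 18 and the lowest for 22 of those 46 probes. All DHT arrays were on 1 chip and all testosterone arrays on another, and in each chip S42L and wild-type cells held different positions. Additive chip effects cancel in comparisons between lines, but chip and androgen cannot be told apart, nor can position and SHBG variant.

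Expression of these families was uneven. Of the 176 probes, 81 were detected on 0 of 12 arrays and 46 on all 12, so most were off or on in every sample. All 6 collagen IV genes, Col5a1, Col6a1, Col7a1, Col16a1 and Col18a1 were detected on all 12 arrays, whereas 22 of 41 collagen genes were not tested. Among those were Col1a2 and Col3a1, chains of the interstitial fibrils, together with Col5a2, Col6a2, Col8a1, Col14a1 and Col15a1. Of the laminin chains, Lama5, Lamb1, Lamb2, Lamb3 and Lamc1 were detected throughout, and Lama2 and Lama4 were not tested. Among α subunits, Itga1, Itga2, Itga3, Itga5, Itga6 and Itgav were detected on every array. The leukocyte subunits Itgal, Itgam and Itgax were not tested, and neither were Itga4, Itga8, Itga9, Itga11 and Itgae. Of the β subunits, Itgb1, Itgb4, Itgb5, Itgb6 and Itgb7 were detected on every array.

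**Figure D1:**
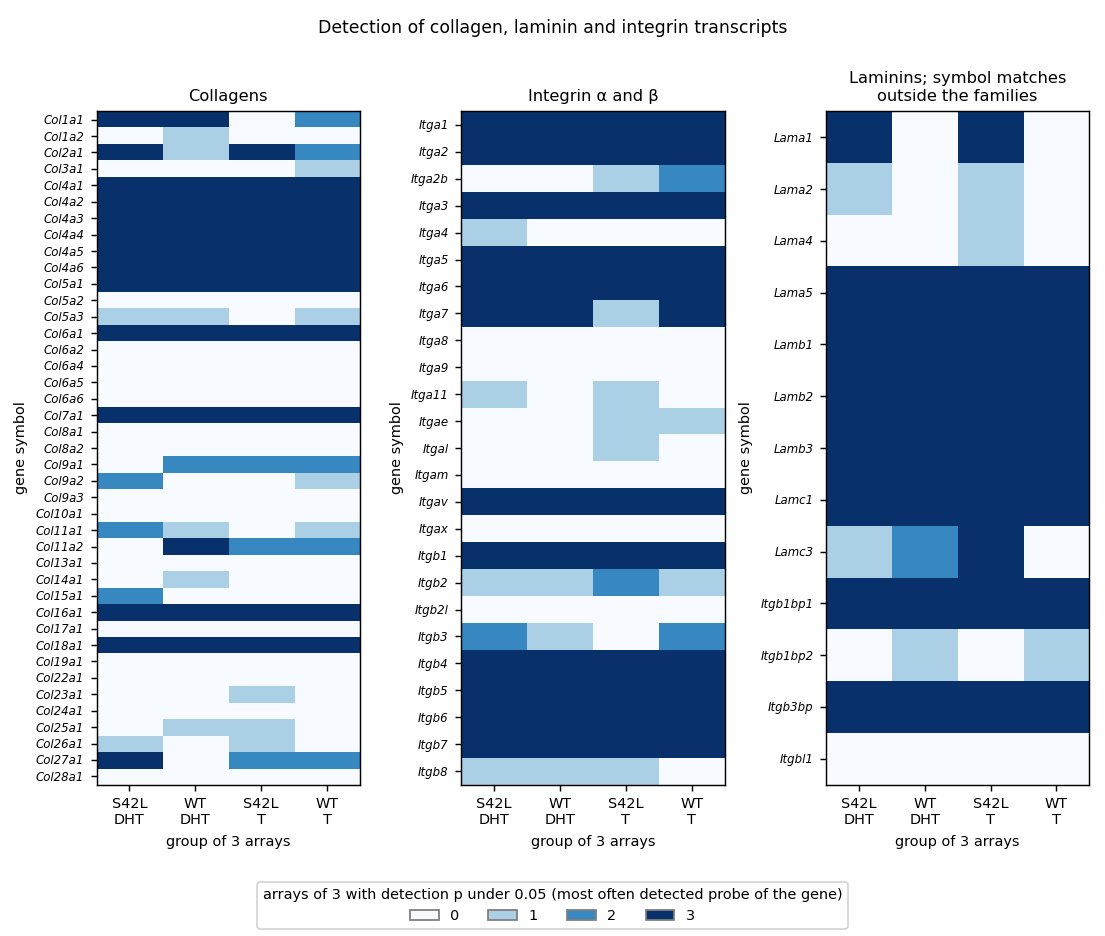
Number of arrays, of 3 per group, on which each gene's most often detected probe had a detection p under 0.05 (colour, 0 to 3), for all 79 genes (rows) in the 4 groups (columns; WT, wild-type SHBG; T, testosterone). Most rows are either dark or white across all 4 groups, while Lama1 is dark in both S42L groups and white in both wild-type groups.

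Setting wild-type against S42L cells asks how cells with an SHBG that binds androgen differ from cells whose SHBG does not. Over both androgens, 25 of the 44 tested genes differed at an adjusted p under 0.05 (limma, Benjamini-Hochberg over all 19480 tested probes). In wild-type cells 9 were higher and 16 lower. These are 56.8% of the tested genes, against 40% of all 10340 genes tested, 19.5% in the upward and 20.5% in the downward direction. By the fitted change, 7 genes were called at least 1.5-fold higher and 9 at least 1.5-fold lower, where 4.92% and 7.68% of all genes tested were called at that size. The 7 include Col11a2, which was undetected in 1 group. With a detection floor set, its means differed by at least 1.4-fold, a bound that leaves out the spread between arrays. The median change was 0.01 on the log2 scale for the tested members and 0.006 for all genes, and the median absolute change was 0.39 and 0.22. By family, 2 collagens were higher and 9 lower, 4 α integrins were higher and 0 lower, and 1 β integrin was higher and 3 lower. Laminins had 2 genes in each direction, and both tested genes outside the families were lower. Scaling arrays to a common median of the tested probes gave 13 higher and 14 lower in place of 9 and 16, with collagens at 5 higher and 7 lower. In such bulk samples, fewer cells of a type and less RNA per cell cannot be told apart.

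**Figure D2:**
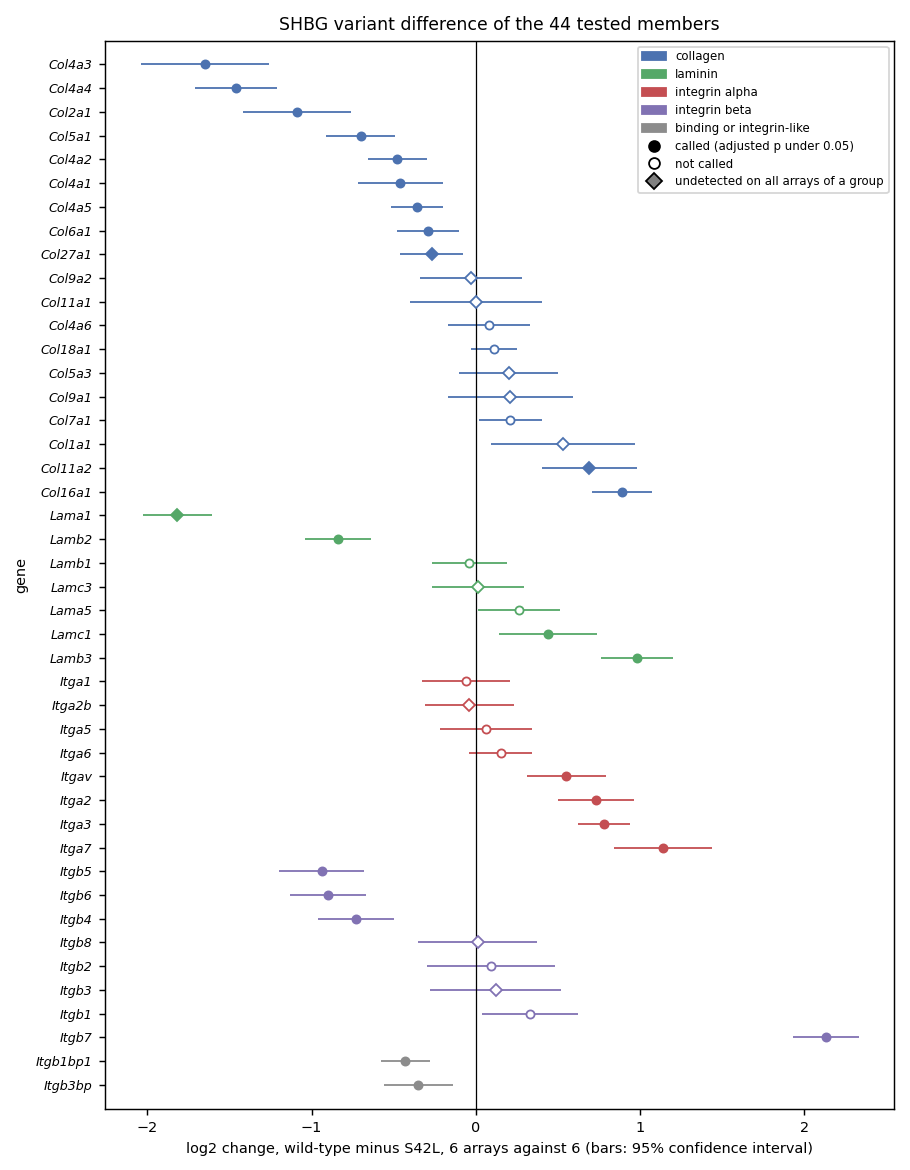
Log2 change in wild-type minus S42L cells over both androgens, 6 arrays against 6, for the 44 tested genes (points; bars, 95% confidence interval; filled, adjusted p under 0.05; diamonds, genes undetected on all arrays of at least 1 group, whose fitted change is not a bound). Col4a3 at -1.65, Col4a4 at -1.46 and Lama1 lie farthest to the left and Itgb7 at 2.13 farthest to the right, and no called α integrin lies left of 0.

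Of the 6 collagen IV genes, 5 were lower in wild-type cells, all but Col4a6. The genes lie in 3 head-to-head pairs. On GRCm38.p6, Col4a1 and Col4a2 lie on chromosome 8 with 5′ ends that overlap by 85 bases, Col4a4 and Col4a3 on chromosome 1 with an overlap of 114 bases, and Col4a6 and Col4a5 on chromosome X with a gap of 1274 bases. RefSeq promoter windows of 250 bases before and 50 after a start were at hand for 59 of the 79 genes and for 5 of these 6, Col4a3 being the exception. They are shown because the partners of a pair are read in opposite directions, in 2 of the 3 pairs from overlapping DNA, and because partners are compared below. Each runs 5′ to 3′ on the gene's own strand, with capitals marking matches on either strand to GGGCGG (the GC box) and CCAAT (the CCAAT box).
Col4a1: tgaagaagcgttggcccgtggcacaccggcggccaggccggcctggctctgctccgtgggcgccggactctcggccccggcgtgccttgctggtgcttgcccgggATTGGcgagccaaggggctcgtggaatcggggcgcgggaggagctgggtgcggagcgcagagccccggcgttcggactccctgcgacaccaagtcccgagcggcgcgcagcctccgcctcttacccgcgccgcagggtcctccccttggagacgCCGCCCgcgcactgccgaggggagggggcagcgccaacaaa
Col4a2: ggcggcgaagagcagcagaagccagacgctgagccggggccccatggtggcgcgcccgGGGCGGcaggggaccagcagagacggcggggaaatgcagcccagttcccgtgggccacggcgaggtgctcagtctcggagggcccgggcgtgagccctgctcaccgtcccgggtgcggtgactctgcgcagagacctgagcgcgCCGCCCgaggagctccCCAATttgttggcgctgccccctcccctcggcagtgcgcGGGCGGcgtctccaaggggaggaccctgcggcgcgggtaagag
Col4a4: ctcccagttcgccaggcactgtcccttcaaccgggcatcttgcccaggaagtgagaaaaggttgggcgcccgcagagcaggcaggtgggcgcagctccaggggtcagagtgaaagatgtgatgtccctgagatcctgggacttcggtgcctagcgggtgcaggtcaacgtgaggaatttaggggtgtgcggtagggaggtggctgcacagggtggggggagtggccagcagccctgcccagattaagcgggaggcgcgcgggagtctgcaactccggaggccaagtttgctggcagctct
Col4a5: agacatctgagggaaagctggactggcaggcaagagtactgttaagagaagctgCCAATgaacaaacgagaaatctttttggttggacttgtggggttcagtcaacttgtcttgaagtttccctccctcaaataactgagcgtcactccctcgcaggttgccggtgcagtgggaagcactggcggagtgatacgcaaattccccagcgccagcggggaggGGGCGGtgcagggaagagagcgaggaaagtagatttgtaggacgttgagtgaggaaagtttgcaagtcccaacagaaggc
Col4a6: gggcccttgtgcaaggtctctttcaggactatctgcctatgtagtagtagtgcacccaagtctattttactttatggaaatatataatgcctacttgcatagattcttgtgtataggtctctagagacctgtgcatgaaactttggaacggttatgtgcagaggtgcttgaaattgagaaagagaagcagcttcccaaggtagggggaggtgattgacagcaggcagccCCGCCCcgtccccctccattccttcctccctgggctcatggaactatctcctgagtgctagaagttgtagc

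The Col4a1 window lies at chr8:11312777-11313076 on the minus strand and the Col4a2 window at chr8:11312555-11312854 on the plus strand, so 78 bases belong to both. The Col4a4 window is chr1:82586800-82587099 on the minus strand and holds the annotated start of Col4a3. Col4a5 is at chrX:141475169-141475468 on the plus strand and Col4a6 at chrX:141474027-141474326 on the minus strand, and these windows share no base. The GC content was 74.0% for Col4a1, 73.7% for Col4a2, 63.3% for Col4a4, 52.7% for Col4a5 and 48.3% for Col4a6. Over all mouse windows its median was 52.7%, so the shares of all windows given next are not matched for GC content. The GC box was matched 1 time in Col4a1, 3 times in Col4a2, and 1 time each in Col4a5 and Col4a6, and 35.7% of all 32851 mouse windows hold it. The CCAAT box was matched 1 time each in Col4a1, Col4a2 and Col4a5, and 37.4% of all windows hold it. AGAACA, a hexamer that androgen and glucocorticoid receptors can bind, had 0 matches in the 5 windows and is in 19.0% of all windows. Such matches describe letters in these windows and show no binding.

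The pair Col4a3 and Col4a4, chains of the collagen IV found in the glomerulus and in parts of the tubule, differed most. Values are normalized log2 intensities, in the order of replicates 1 to 3. Col4a3 read 6.92, 7.31 and 7.79 in S42L cells with DHT and 7.26, 7.68 and 7.18 in S42L cells with testosterone, against 6.26, 5.35 and 5.50 in wild-type cells with DHT and 5.51, 5.69 and 5.92 in wild-type cells with testosterone. Every S42L array was thus above every wild-type array, with a difference of -1.65 ± 0.18 (SE, 6 arrays against 6, limma adjusted p = 2e-05). Col4a4 read 8.09, 8.61 and 8.47 in S42L cells with DHT and 8.14, 8.20 and 8.26 with testosterone, and in wild-type cells 6.60, 7.04 and 6.61 with DHT and 7.14, 6.77 and 6.82 with testosterone. Its lines did not overlap either, and the change was -1.46 ± 0.11 (limma adjusted p = 1.3e-06). Another Col4a4 probe gave -1.34 ± 0.18, and one that was undetected on all 6 wild-type arrays was at least 1.39-fold lower, so the gene's tested probes were called in the same direction.

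The pair Col4a1 and Col4a2, whose chains form the collagen IV present in all basement membranes, was lower by less and nearly by the same amount. Col4a1 read 12.53, 12.56 and 12.71 with DHT and 12.53, 12.67 and 12.62 with testosterone in S42L cells, against 12.32, 12.15 and 12.30 with DHT and 12.25, 12.29 and 11.53 with testosterone in wild-type cells. The last value is from the array that stood apart. The change was -0.46 ± 0.12 (limma adjusted p = 0.0091), and -0.34 without that array. Col4a2 read 11.80, 11.75 and 11.76 with DHT and 11.59, 11.75 and 11.80 with testosterone in S42L cells, and 11.49, 11.29 and 11.32 with DHT and 11.24, 11.31 and 10.94 with testosterone in wild-type cells. Its lines did not overlap, at -0.48 ± 0.08 (limma adjusted p = 0.00069).

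Of the X-linked pair, Col4a5 was lower and Col4a6 was not called. Col4a5, which joins the Col4a3 and Col4a4 chains, read 9.69 to 9.87 on the 6 S42L arrays and 9.29 to 9.64 on the 6 wild-type arrays (-0.36 ± 0.08, limma adjusted p = 0.0026), and another probe gave -0.43 ± 0.10. Col4a6 read 6.77 to 7.22 in S42L cells and 6.84 to 7.56 in wild-type cells, overlapping ranges, with a change of 0.08 (95% confidence interval -0.17 to 0.34, limma adjusted p = 0.61). The pair with the widest gap between its starts was therefore the one in which the partners' calls differed. With 3 pairs this is a description.

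Outside collagen IV, 4 collagens were lower and 2 higher in wild-type cells. Col2a1, the fibrillar collagen of cartilage, read 6.25, 6.26 and 5.97 with DHT and 6.31, 6.13 and 6.19 with testosterone in S42L cells, against 5.02, 5.16 and 4.84 with DHT and 5.66, 5.28 and 4.59 with testosterone in wild-type cells. S42L arrays were all above wild-type arrays, where the probe was detected on only 3 of 6 arrays (-1.09 ± 0.15, limma adjusted p = 0.00011). Its other probes gave -0.93 and -0.57, both called.

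Col5a1, a chain that nucleates fibrils of collagen I, read 11.18, 10.99 and 10.95 with DHT and 10.88, 10.79 and 10.96 with testosterone in S42L cells. In wild-type cells it read 10.20, 10.34 and 10.18 with DHT and 10.28, 9.98 and 10.56 with testosterone. The lines did not overlap (-0.70 ± 0.10, limma adjusted p = 0.00013). Its usual partner Col5a2 was not tested, and Col5a3 was detected on 3 of 12 arrays and not called.

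Col16a1, a collagen of the group that associates with fibril surfaces, went the other way. It read 10.63, 10.57 and 10.47 with DHT and 10.37, 10.43 and 10.30 with testosterone in S42L cells, against 11.23, 11.40 and 11.20 with DHT and 11.40, 11.23 and 11.62 with testosterone in wild-type cells. Every wild-type array was above every S42L array (0.89 ± 0.08, limma adjusted p = 5e-06). Col11a2, a minor fibrillar chain, read 4.52, 4.62 and 4.77 with DHT and 5.23, 5.01 and 5.26 with testosterone in S42L cells, and 5.37, 5.71 and 5.81 with DHT and 5.05, 5.71 and 5.88 with testosterone in wild-type cells. Here the ranges overlapped, through wild-type testosterone replicate 1, and the probe was undetected on all S42L arrays with DHT. The gene was at least 1.4-fold higher (limma adjusted p = 0.0016), while its other probe, at the edge of detection, differed by 0.01 and was not called.

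Smaller collagen differences were those of Col6a1, a chain of the beaded-filament collagen VI (-0.29 ± 0.09, limma adjusted p = 0.018), and Col27a1, a fibrillar chain that was undetected with DHT in wild-type cells and at least 1.06-fold lower (limma adjusted p = 0.028). Another Col6a1 probe gave -0.13 and was not called. Both calls rested on the settings: scaling to a common median ended the call of Col6a1 (adjusted p = 0.055), and the Col27a1 call ended without background correction (adjusted p = 0.2), under other settings and without S42L DHT replicate 2, wild-type DHT replicates 1 or 2, or S42L testosterone replicates 1 or 2 (adjusted p = 0.053 to 0.076). Col18a1, the basement membrane collagen that releases endostatin, differed by 0.11 (95% confidence interval -0.03 to 0.25, limma adjusted p = 0.2), although another of its probes was called higher at 0.49. Some changes of processing also called Col18a1 higher (lowest limma adjusted p = 0.0036). Col7a1, the anchoring fibril collagen, differed by 0.21 and was not called, with another probe called higher at 0.39.

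The laminin chains moved in both directions, with Lama1 as the largest difference. Lama1, the α chain of the embryonic basement membrane, which the adult proximal tubule keeps, read 6.35, 6.37 and 6.30 with DHT and 6.68, 6.65 and 7.04 with testosterone in S42L cells. It read 4.90, 4.44 and 4.73 with DHT and 4.73, 4.74 and 4.94 with testosterone in wild-type cells, where it was not detected on any of 6 arrays. In unnormalized signal, the S42L arrays read 167.4 to 240.8 and the wild-type arrays 121.1 to 139.7, which is the level of undetected probes. Lama1 was at least 2.73-fold lower in wild-type cells (limma adjusted p = 4.9e-08).

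Lamb2, the β chain typical of mature basement membranes, read 9.48, 9.20 and 9.10 with DHT and 9.23, 9.39 and 9.11 with testosterone in S42L cells, and 8.40, 8.55 and 8.31 with DHT and 8.52, 8.45 and 8.24 with testosterone in wild-type cells. All S42L arrays were above all wild-type arrays (-0.84 ± 0.09, limma adjusted p = 2e-05). Lamb3, the β chain of epithelial laminin-332, read 8.41, 8.15 and 8.23 with DHT and 7.96, 8.08 and 7.87 with testosterone in S42L cells, against 9.44, 9.24 and 9.31 with DHT and 9.02, 9.06 and 8.51 with testosterone in wild-type cells. Here every wild-type array was higher (0.98 ± 0.10, limma adjusted p = 1.4e-05).

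The remaining laminin chains differed by less. Lamc1, the γ chain of most laminins, was higher at 0.44 ± 0.14 (limma adjusted p = 0.025) by its brightest probe, with overlapping lines because wild-type testosterone replicate 3 read 9.71 where the other 2 arrays of its group read 10.33 and 10.72. Another Lamc1 probe gave 0.80 ± 0.09 (limma adjusted p = 1.9e-05) in the same direction. The call of the first ended without S42L DHT replicate 1 (adjusted p = 0.061), wild-type DHT replicate 3 (adjusted p = 0.055) or wild-type testosterone replicate 1 (adjusted p = 0.052). Lama5, the main α chain of mature epithelial basement membranes, differed by 0.26 (95% confidence interval 0.01 to 0.51, limma adjusted p = 0.092), and without wild-type testosterone replicate 3 it was called higher at 0.36 (adjusted p = 0.0039). Some changes of processing also called Lama5 higher (lowest limma adjusted p = 0.014). Lamb1 differed by -0.04 (95% confidence interval -0.27 to 0.19, limma adjusted p = 0.79).

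**Figure D3:**
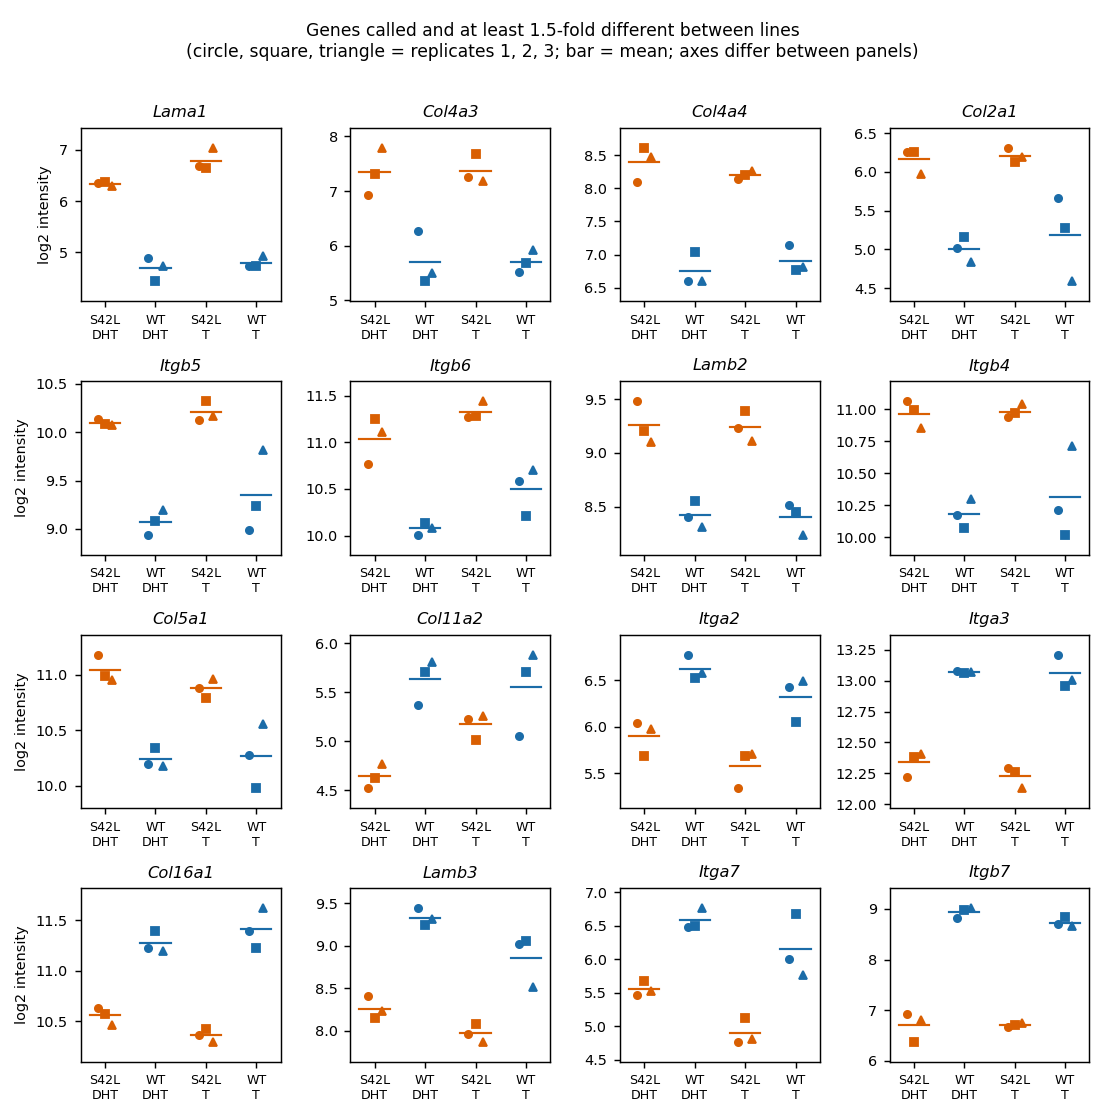
Normalized log2 intensity on all 12 arrays (circle, square and triangle, replicates 1, 2 and 3; bar, mean of 3; orange, S42L; blue, wild-type) for the 16 genes called with a fitted change of 1.5-fold or more over both androgens, with a separate axis per gene. The lines are separate on all 12 arrays in each panel except that of Col11a2. The 16 genes were chosen by this same contrast, so their separation adds no support to it.

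All 4 α integrins that were called were higher in wild-type cells. Itga3, a subunit of an epithelial laminin receptor, read 12.22, 12.38 and 12.41 with DHT and 12.29, 12.26 and 12.13 with testosterone in S42L cells, against 13.08, 13.06 and 13.07 with DHT and 13.21, 12.96 and 13.01 with testosterone in wild-type cells. The lines were far apart relative to their spread (0.78 ± 0.07, limma adjusted p = 5.2e-06). Itga2, a collagen receptor subunit, read 6.04, 5.69 and 5.98 with DHT and 5.34, 5.69 and 5.71 with testosterone in S42L cells, and 6.77, 6.52 and 6.57 with DHT and 6.43, 6.05 and 6.49 with testosterone in wild-type cells. Its groups met without overlap at 6.04 and 6.05 (0.73 ± 0.11, limma adjusted p = 2e-04).

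Itga7, a laminin receptor subunit best known from muscle, read 5.46, 5.68 and 5.53 with DHT and 4.77, 5.12 and 4.81 with testosterone in S42L cells, and 6.48, 6.49 and 6.76 with DHT and 6.0, 6.68 and 5.76 with testosterone in wild-type cells. It was detected on 4 of 6 S42L arrays and on all 6 wild-type arrays, without overlap (1.14 ± 0.14, limma adjusted p = 5e-05). Itgav, the RGD-binding subunit, was higher at 0.55 ± 0.11 (limma adjusted p = 0.002) by its brightest probe, while 2 other probes gave 0.27 and -0.18 and were not called. The mean of its probes was not called (adjusted p = 0.094). Itga6 differed by 0.15 (95% confidence interval -0.04 to 0.35, limma adjusted p = 0.2) and 2 of its other probes by -0.25 and -0.22, none of them called, so its direction depended on the probe. Itga1 and Itga5, the fibronectin receptor subunit, differed by -0.06 and 0.06 and were not called.

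Among the β integrins, Itgb7 stood out. This subunit is known from lymphocytes, where it pairs with Itga4 or Itgae. It read 6.92, 6.38 and 6.80 with DHT and 6.66, 6.71 and 6.75 with testosterone in S42L cells, against 8.82, 8.97 and 9.01 with DHT and 8.70, 8.84 and 8.66 with testosterone in wild-type cells. It was detected on all 12 arrays, and the change of 2.13 ± 0.09 (limma adjusted p = 9.4e-09) was the largest in either direction among the called members detected in all 4 groups. Neither partner was tested: Itga4 probes were detected on at most 1 and Itgae probes on at most 2 of 12 arrays.

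Of the 8 tested β subunits 3 were lower, Itgb4, Itgb5 and Itgb6. Itgb5, a partner of Itgav, read 10.14, 10.09 and 10.08 with DHT and 10.13, 10.32 and 10.17 with testosterone in S42L cells, and 8.94, 9.08 and 9.20 with DHT and 8.99, 9.24 and 9.82 with testosterone in wild-type cells. The lines did not overlap, with the array that stood apart nearest to the S42L values (-0.94 ± 0.12, limma adjusted p = 7.1e-05). Itgb6, the epithelial partner of Itgav that activates TGF-β, read 10.77, 11.25 and 11.11 with DHT and 11.27, 11.28 and 11.44 with testosterone in S42L cells, and 10.01, 10.14 and 10.08 with DHT and 10.59, 10.21 and 10.70 with testosterone in wild-type cells. Again every S42L array was higher (-0.90 ± 0.10, limma adjusted p = 3.3e-05), and 2 further probes gave -0.93 and -1.10.

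Itgb4, the hemidesmosome subunit that pairs with Itga6, read 11.06, 10.99 and 10.85 with DHT and 10.94, 10.97 and 11.04 with testosterone in S42L cells, against 10.17, 10.07 and 10.30 with DHT and 10.21, 10.02 and 10.71 with testosterone in wild-type cells. The lines were separate (-0.73 ± 0.11, limma adjusted p = 0.00021), and another probe gave -0.84 ± 0.11. Wild-type testosterone replicate 3 lay 0.59 above the mean of its group's other 2 arrays by the first Itgb4 probe and -0.66 from it by the second, so its departures ran in opposite directions for 1 gene. Itgb1, the shared β subunit of most matrix receptors, differed by 0.33 (95% confidence interval 0.04 to 0.62, limma adjusted p = 0.069), and it was called higher at 0.40 without wild-type DHT replicate 2 and at 0.41 without wild-type testosterone replicate 2. Some changes of processing also called Itgb1 higher (lowest limma adjusted p = 0.018). Itgb2, Itgb3 and Itgb8, detected on 3 to 5 of 12 arrays, were not called.

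The 2 tested genes outside the families were both lower. Itgb1bp1, encoding an intracellular protein that binds the Itgb1 tail, changed by -0.43 ± 0.07 (limma adjusted p = 0.00042), but another probe gave -0.11 and was not called. Itgb3bp, whose product is known as a centromere protein and nuclear coregulator, changed by -0.35 ± 0.10 (limma adjusted p = 0.014).

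Taken separately, DHT and testosterone gave similar differences between the lines. Under DHT, 21 of 44 genes were called, 8 higher and 13 lower, where 25% of all genes were called (11.8% higher, 13.3% lower). Under testosterone it was 19, 6 higher and 13 lower, where 25.9% of all genes were called (11.8% higher, 14.1% lower). Under both androgens 18 genes were called, and all 18 had the same direction. The matching share of all genes was not computed, so this count describes the members and sets them apart from no other genes. Col11a2, Col27a1 and Itgav were called under DHT alone and Col4a1 under testosterone alone, but no interaction between SHBG variant and androgen was called for any of the 44 genes. Itgb7 changed by 2.24 ± 0.13 under DHT and 2.03 ± 0.13 under testosterone, Col4a3 by -1.64 ± 0.26 and -1.67 ± 0.26, and Lamb2 by -0.84 ± 0.13 under each. Lama1 was at least 2.34-fold lower under DHT and at least 3.18-fold lower under testosterone (limma adjusted p = 6.1e-06 and 1.5e-06).

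**Figure D4:**
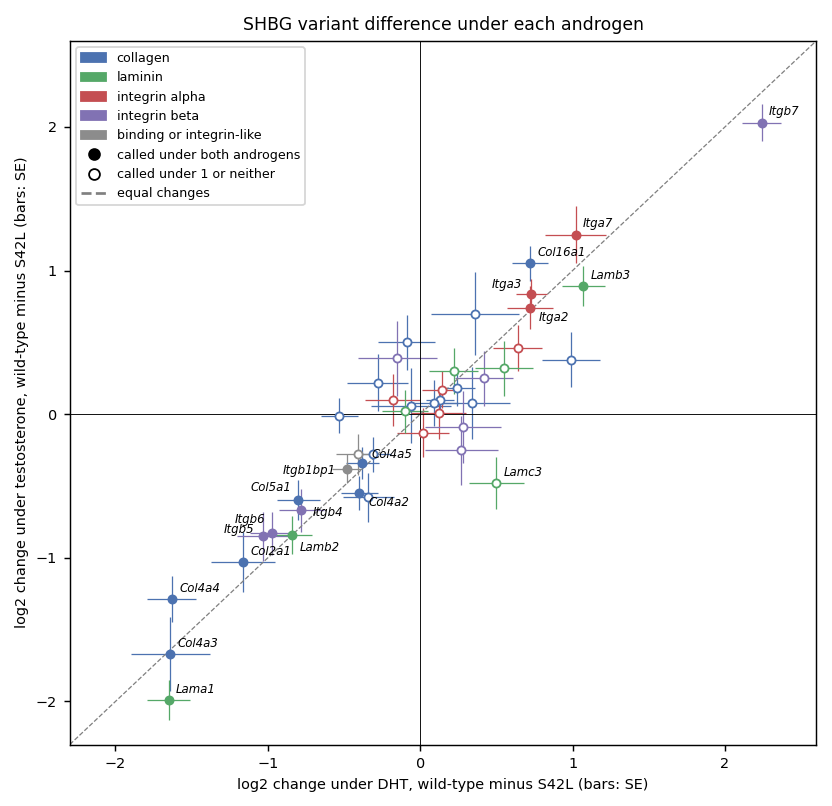
Log2 change in wild-type minus S42L cells under DHT (x axis) and under testosterone (y axis), 3 arrays against 3 each, for the 44 tested genes (bars, SE; filled, called under both; dashed line, equal changes). The 18 genes called under both androgens have the same sign on both axes, and Lamc3 is the labelled gene in the lower right.

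The direct comparison of DHT with testosterone gave 0 called genes of 44 in wild-type cells and 0 of 44 in S42L cells by limma, where 0.0677% and 0.28% of all genes were called. The interaction likewise had 0, where 0.00967% of all genes were called. At an unadjusted p under 0.05 there were 5, 7 and 3 of the 44 genes, or 11.4%, 15.9% and 6.82%, beside 10.3%, 11.9% and 4.09% of all genes tested. With 3 arrays against 3, the median 95% confidence interval, before adjustment, was 0.316 log2 units wide on each side. A call also needed adjustment over all tested probes, so differences between the androgens well above that size could be missed. Lamb1 had the lowest p in wild-type cells. It read 6.05, 6.38 and 6.16 with DHT and 6.55, 6.92 and 6.86 with testosterone there (-0.58 ± 0.15, limma adjusted p = 0.16), and 6.47, 6.24 and 6.18 with DHT and 7.02, 6.69 and 6.57 with testosterone in S42L cells (-0.47 ± 0.15, limma adjusted p = 0.19). The androgen groups did not overlap in either line, but chip moved with androgen.

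Lamc3, a γ chain detected on 6 of 12 arrays, had the lowest interaction p among these genes, chosen for that reason after its values were seen. It read 4.81, 4.97 and 4.81 in S42L cells and 5.00, 5.34 and 5.74 in wild-type cells with DHT, but 5.20, 5.23 and 5.39 in S42L cells and 4.44, 4.92 and 5.02 in wild-type cells with testosterone. Wild-type arrays were thus above S42L arrays under DHT and below them under testosterone. The interaction of 0.97 ± 0.26 did not pass adjustment (limma adjusted p = 0.72), and the probe was detected on 0 of 3 wild-type arrays with testosterone.

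Without wild-type testosterone replicate 3, 27 genes were called over both androgens, which included all 25 and added Lama5 and Col1a1, where 43% of all genes were called. In S42L cells the hormone contrast then called 1 gene, Col1a1, at least 1.2-fold higher with DHT (limma adjusted p = 0.029, where 1.02% of all genes were called), although that array is no part of this contrast other than through the shared estimate of spread. With all arrays Col1a1, a chain of the main interstitial collagen, was not called in that contrast (limma adjusted p = 0.34). It was not detected on the 3 S42L arrays with testosterone.

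For collagen synthesis and crosslinking 22 genes were tested. In wild-type cells 3 of them were higher, 5 lower and 14 without a call, where 40% of all genes were called (19.5% higher, 20.5% lower), so the list's share was near that of all genes. Their median was -0.05. Scaling to a common median of the tested probes gave 7 higher and 5 lower. P3h2, the prolyl 3-hydroxylase that acts on collagen IV, was lowest at -1.88 ± 0.08 (limma adjusted p = 4.2e-09), with 8.28 to 8.61 on the S42L arrays and 6.23 to 6.68 on the wild-type arrays. The lines lay far apart. Fkbp14, a collagen-folding isomerase of the endoplasmic reticulum, changed by -1.08 ± 0.12, and P3h1 by -0.45 ± 0.14 with 2 other probes not called. P4ha1, the catalytic subunit of prolyl 4-hydroxylase, was higher at 0.75 ± 0.11 by 1 probe and not called by another (0.11). The procollagen peptidase enhancer Pcolce2 was higher at 0.48 ± 0.06 and the lysyl oxidase-like gene Loxl4 at 0.37 ± 0.12, with 1 of its other probes not called. The calls of P3h1 and Loxl4 each ended when any of several single arrays was left out (adjusted p = 0.053 to 0.07). Both also ended under other settings (limma adjusted p up to 0.12 for P3h1 and 0.3 for Loxl4).

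Of 17 tested partners of laminin and collagen IV in the basement membrane, 8 fell, 3 rose and 6 had no call, against 20.5% lower and 19.5% higher of all genes. Their median was -0.38 against 0.006 for all genes. Nid2, a nidogen that links laminin to collagen IV, read 6.91 to 7.22 on S42L arrays and 5.97 to 6.36 on wild-type arrays (-0.98 ± 0.09, limma adjusted p = 5.4e-06), so the lines were separate. Tinag, the tubulointerstitial nephritis antigen of the tubule basement membrane, changed by -0.77 ± 0.07, and Dag1, the laminin receptor dystroglycan, by -0.63 ± 0.10. Ddr2, a collagen receptor kinase, was higher at 1.39 ± 0.18, though detected on only 1 of 3 S42L arrays with testosterone. The brighter Ddr1 of the same list was called lower. Its means with DHT and testosterone were 11.51 and 11.41 in S42L cells, and 10.96 and 10.86 in wild-type cells. Another Ddr1 probe gave 0.27 and was not called. Tinagl1, the relative of Tinag, was higher at 0.37 ± 0.12, a call that also ended without any of several single arrays (adjusted p = 0.05 to 0.062). The Tinagl1 call was lost under other settings too (limma adjusted p up to 0.053). For Cd44, a hyaluronan receptor, the brightest probe was higher at 0.53 ± 0.08 and 2 other probes were also called higher, while 3 were called lower, so it has no single direction here.

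Of 9 tested integrin ligands outside these families, 4 rose, 3 fell and 2 had no call (median 0.13), where 40% of all genes were called. Vcam1, a cell surface ligand of the Itga4 integrins, read 9.02 to 9.47 on the S42L arrays and 11.06 to 11.62 on the wild-type arrays (2.07 ± 0.11, limma adjusted p = 4.2e-08). Icam1, a ligand of leukocyte integrins, was higher at 0.93 ± 0.12 and the matricellular gene Ccn1 at 0.53 ± 0.09. Cdh1, E-cadherin, which is a ligand of the Itgae integrin, read 9.04 to 9.36 on the S42L arrays and 6.85 to 7.69 on the wild-type arrays (-1.87 ± 0.09, limma adjusted p = 2.1e-08). Thbs1 (thrombospondin) changed by -0.59 ± 0.16 and the Itgav ligand Mfge8 by -0.32 ± 0.09, which scaling to a common median of the tested probes left at -0.17 and not called. For Vcam1 and Cdh1 the lines were thus separate on all 12 arrays, in opposite directions.

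Inside the cell, 6 of 24 tested adhesion proteins were higher, 4 lower and 14 not called (median 0.07), a share close to the 40% called among all genes. The focal adhesion kinase relative Ptk2b was higher at 0.74 ± 0.11, the epithelial kindlin Fermt1 at 0.74 ± 0.08 and Lims2 at 0.47 ± 0.11. Tensin, Tns1, changed by -0.90 ± 0.09 and the integrin-linked kinase Ilk by -0.45 ± 0.08, each with another probe not called. Krit1 changed by -0.53 ± 0.18 by its brightest probe. Its other tested probes gave 0.24, -0.09 and 0.13, none called, so its direction depended on the probe. The Krit1 call ended without any of several single arrays (adjusted p = 0.054 to 0.076) and under other settings (limma adjusted p up to 0.59). Of 15 matrix proteases and inhibitors, 4 were higher, 3 lower and 8 not called (median -0.10), again beside 40% of all genes. The urokinase receptor Plaur was higher at 0.90 ± 0.07, tissue plasminogen activator Plat at 0.73 ± 0.09 and Adam9 at 0.49 ± 0.09. Mmp11 changed by -0.77 ± 0.11 and Adamts1 by -0.67 ± 0.11, and Mmp2, a gelatinase that was not detected in wild-type cells with testosterone, was at least 1.21-fold lower. In each of these 5 lists, 0 genes were called in either hormone contrast or in the interaction.

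Markers of the labelled cell type were present in part. Calls for the marker lists are those over both androgens, where 40% of all genes tested were called, 20.5% lower and 19.5% higher. Of 10 measured proximal tubule markers, 6 were tested, and all 6 were lower in wild-type cells, among them Mme (-1.32 ± 0.10), Aqp1 (-1.18 ± 0.11), Amn (-0.82 ± 0.07) and Lrp2 (-0.50 ± 0.08). Another Mme probe gave -1.25 and was called, and a further one gave -0.35 and was not called. Cubn, Slc34a1 and Slc22a6 were not detected in any group. The summed normalized intensity of the list was 7491 to 9566 in S42L cells and 4129 to 5487 in wild-type cells. Of 12 fibroblast markers 3 were tested, and Pdgfra, Pdgfrb, Lum, Thy1, Postn and Fap were not detected in any group. Of those tested Dcn, decorin, was lower (-4.79 ± 0.10), and the list's sum was 12444 to 14600 in S42L cells and 11687 to 13619 in wild-type cells. For immune markers, 2 of 6 were tested and both were lower, with sums of 768 to 1038 and 442 to 555, and Ptprc, Cd3e and Tyrobp were not detected in any group. Endothelial markers had 4 of 9 tested, 1 higher and 3 lower, with sums of 1463 to 1753 in S42L and 777 to 1087 in wild-type cells. Podocyte markers had 2 of 3 tested with 1 lower (Synpo) and sums of 853 to 1059 and 473 to 633, and Nphs1 was not detected in any group. Distal nephron markers had 7 of 8 tested with 4 lower and sums of 9090 to 9826 and 6580 to 7073. The part of cell type differences in the collagen, laminin and integrin results was not tested.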

How the data were processed

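Each probe of the deposited main table has, per the file headers, 1 average bead signal on every array, a linear intensity that was neither background-subtracted nor normalized, and a detection p-value against negative control beads. The submitters' processing notes name BeadStudio, with a version not given in the sources used here. The authors' own processed intensity values, deposited beside it and of unstated normalization, were used as 1 alternative.

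With neqc of limma 3.58.1 in R 4.3.3, background was estimated through the detection p-values, an offset of 16 was added, arrays were quantile-normalized and values moved to the log2 scale, a step that would hide a shift of most transcripts between the lines. Of 45281 probes, 19480 reached a detection p under 0.05 on 3 or more of the 12 arrays and were tested. The platform annotation gave 1 symbol to 34885 probes, several to 18 and none to 10378. Genes were represented by the tested probe of highest mean. The limma fit (lmFit, eBayes) held 4 group means and all 12 arrays, with 8 residual and 4.32 prior degrees of freedom. For 6 contrasts, the two-sided p was adjusted across probes (Benjamini-Hochberg).

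If no array of a group detected a probe, a called difference is printed as at least N-fold, the bright line's mean over a floor. This bound compares means and leaves out the spread between arrays. On each dim array the floor was the lowest detected value or the probe's own, whichever was larger. Groups came from the sample titles. Genes were named if they were called members, 1 of 11 basement membrane components and receptors, or among up to 3 called genes per direction of a partner list, and members with 1.5-fold changes were given with all values. Ddr1 was named beside Ddr2 outside this rule. The members, gene lists and tests were chosen with earlier results of these data known. The pipeline was tested on simulated data. Alternatives changed background correction, normalization, filter, probe choice, source table, chip, replicate block and the arrays included.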

Additional observations from a re-analysis of the deposited data

How the results depend on the processing

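Counts of called members, and of called genes in the 5 partner lists over both androgens, stayed within 1.5 times under all alternatives, except that DHT against testosterone in S42L cells gave 1 in place of 0 without wild-type testosterone replicate 3. Leaving out single arrays gave 24 to 27 called members over both androgens, 19 to 26 under DHT, 16 to 22 under testosterone and 0 to 1 in S42L cells between the androgens. Of the 25 called members, 21 kept their call under every alternative that tested them and 0 changed direction. The stricter filter did not test Col11a2, which is among the 21, or Col27a1. The other 4 were Col27a1, Lamc1 (adjusted p of 0.061, 0.055 and 0.052 without S42L DHT replicate 1, wild-type DHT replicate 3 or wild-type testosterone replicate 1), Col6a1 and Itgav. Lama5, Itgb1 and Col18a1, not called above, gained a call as higher under some changes of processing. Scaling to a common median of the tested probes called Lama5, Col18a1, Col7a1 and Col1a1 higher. Of the partner genes named, P3h1, Loxl4, Tinagl1 and Krit1 lost their call without some single arrays (S42L DHT replicates 1 to 3, wild-type DHT replicates 2 and 3, S42L testosterone replicates 1 to 3, wild-type testosterone replicates 1 and 3). Each also lost it under some alternative that kept all arrays, with limma adjusted p up to 0.12, 0.3, 0.053 and 0.59 in that order. Changes that were not called, or rested on 1 of several probes, changed sign in a few settings. Averaged over probes, Cd44 stood at -0.12 and Itga6 at -0.10. Itga6 stood at -0.02 with arrays scaled to a common median of all probes, a setting added after seeing the data. Lamb1 ranged from -0.09 to 0.02 when single arrays were left out, with 0.02 without S42L testosterone replicate 1 and 0.01 without wild-type testosterone replicate 1. The causes were not tested.

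Scaling to a median moved the median of all tested probes from 0.016 to 0.083 when taken over tested probes and to -0.076 when taken over all probes, and under testosterone from 0.012 to 0.095 and -0.112. The second gave 25 called members over both androgens, 9 higher and 16 lower. A block for the replicate number gave 25, 22 and 19 called members over both androgens, under DHT and under testosterone. Same-numbered samples did not deviate together (18 pairs, r from -0.05 to 0.12), which cannot show whether they shared a culture or a day. Dim probes limit what can be seen: 108 of 176 member probes were detected on fewer than 3 arrays, and small folds near background are compressed.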
